A study of Rattus norvegicus with 15 samples.

Results

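The 10 genes described here encode nuclear receptors that govern drug, bile acid, lipid and energy metabolism in liver: Esr1, Nr1i2, Nr1i3, Ppara, Nr1h3, Nr1h4, Nr0b2, Rxra, Hnf4a and Esrra. They were taken as every probe set whose array annotation names only 1 of these genes, which gave 12 probe sets for 10 of the 14217 genes with a symbol, among 31099 probe sets on the array. Hnf4a had 3 probe sets and each other gene had 1. The data are liver RNA levels from 15 male Sprague-Dawley rats on 1-channel Affymetrix rat arrays, with 5 rats per diet and, as the titles describe them, 1 biological replicate per array. The rats entered the study at 4 weeks of age, adapted for 5 days and then received for 14 days genistein at 2 g per kg of feed, daidzein at that same dose, or the control feed without isoflavone. The base feed shared by every rat contained casein at 200 g/kg and, as fat, palm oil at 100 g/kg. The isoflavones come from soy, genistein carries 1 more hydroxyl group than daidzein, and each was set against the control and against the other. The description of genistein 3 alone carries the suffix "re", which the labels do not explain. Several results that rest on this liver are also given without it, but the Hnf4a probe set differences are not.

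Nuclear receptors are transcription factors that bind small lipophilic molecules and switch on or off the genes of the pathways those molecules belong to. In liver, CAR (Nr1i3) and PXR (Nr1i2) respond to drugs and other foreign compounds, PPAR alpha (Ppara) to fatty acids, LXR alpha (Nr1h3) to oxysterols and FXR (Nr1h4) to bile acids, and each of these pairs with the shared partner RXR alpha (Rxra). SHP (Nr0b2) has no DNA-binding domain and represses other receptors, HNF4 alpha (Hnf4a) maintains the hepatocyte programme, ERR alpha (Esrra) drives mitochondrial genes with the coactivator Ppargc1a, and the estrogen receptor alpha (Esr1) binds estrogens and, more weakly, isoflavones. The activity of most of these receptors is set by their ligands, so a receptor's RNA level is not a measure of its activity.

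Levels are on a log2 scale inferred from the authors' scores, with an arbitrary zero, so they can be compared between diets for 1 probe set but not between probe sets. A difference of 1 is a doubling. Each comparison was fitted with limma over 18625 probe sets, and adjusted p is that fit's Benjamini-Hochberg value over all of them, with a threshold of 0.05. Whole liver was measured, so fewer cells of a type and less RNA per cell cannot be told apart. As a rough check of the tissue label, the 6 hepatocyte markers lay between the 96.4th and 100th percentiles of mean level. This ranks probe sets by brightness and does not compare RNA amounts between genes. The highest marker of any other list was at 96.6. Passing the filter on dim probe sets does not set liver apart, since all measured Kupffer, stellate, endothelial and leukocyte markers also passed. None of the 23 marker genes past the filter, over 6 cell type lists, was called in any comparison. The summed intensity of the 4 measured Kupffer cell markers ranged from 1174 to 2925 in genistein livers, from 1286 to 2187 in daidzein livers and from 1561 to 2413 in control livers. Of the cholangiocyte markers, Krt19 and Krt7 lay below the filter. Arrays correlated with each other between 0.931 and 0.969 across the tested probe sets.

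None of the 11 receptor probe sets that passed the filter was called in any of the 3 comparisons. The share of all probe sets called was 0.322% for genistein against control, 0.0161% for daidzein against control and 0.113% for genistein against daidzein, and a count of 0 among 11 is near that background. By direction these shares were 0.15% higher and 0.172% lower, 0.0161% higher and 0% lower, and 0.0322% higher and 0.0805% lower. Of the 11 intervals of 95%, 11 lay between log2 changes of -1 and 1 for genistein against control, 9 for daidzein against control and 11 for genistein against daidzein. The exceptions were Nr1i3, whose upper bound was 1.25, and Nr0b2, whose lower bound was -1.06, both with daidzein. In each comparison 1 of the 11 had an unadjusted p under 0.05, or 9.09%, against 11%, 8.25% and 9.37% of all tested probe sets, which is the share of the array as a whole. These were Nr1h3 for genistein against control, Nr1i3 for daidzein against control and Nr1i2 for genistein against daidzein. Median log2 changes of the 11 were 0.09, 0.02 and -0.04 in the same order of comparisons. Over all tested probe sets the log2 change was above 0 for 50%, 50.1% and 50.2%.

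**Figure D1:**
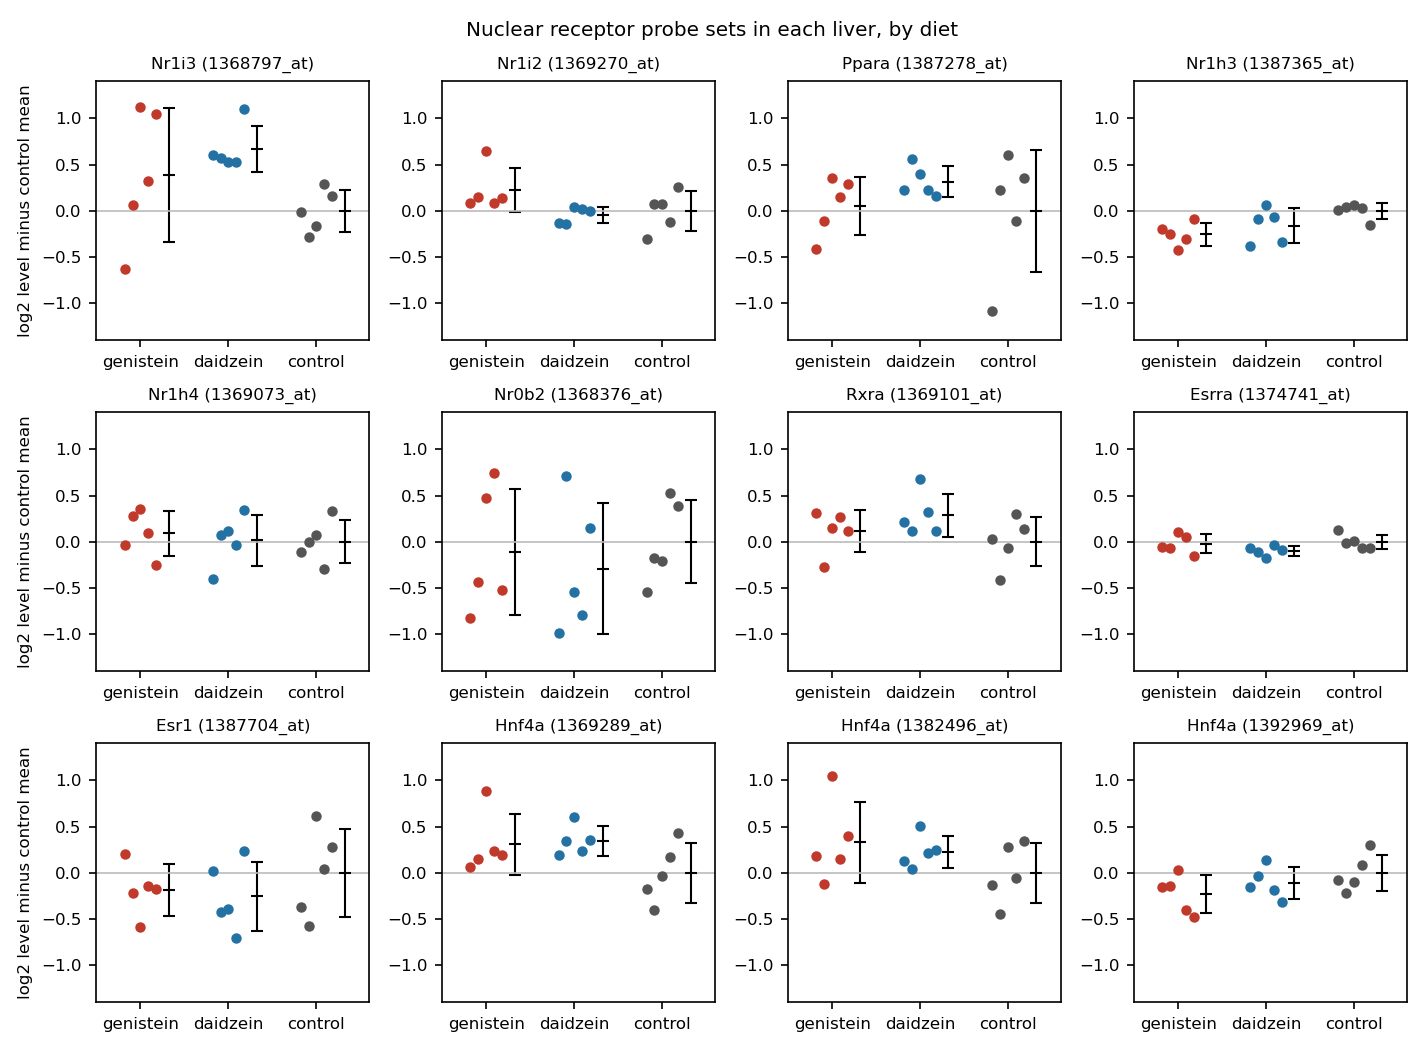
Level of each receptor probe set in each liver, in log2 units relative to the control mean of that probe set, for the genistein, daidzein and control diets. Points are single livers and bars are the mean and SD of 5; daidzein livers lie above every control liver for Nr1i3, and Nr0b2 spreads widely in all diets.

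**Figure D2:**
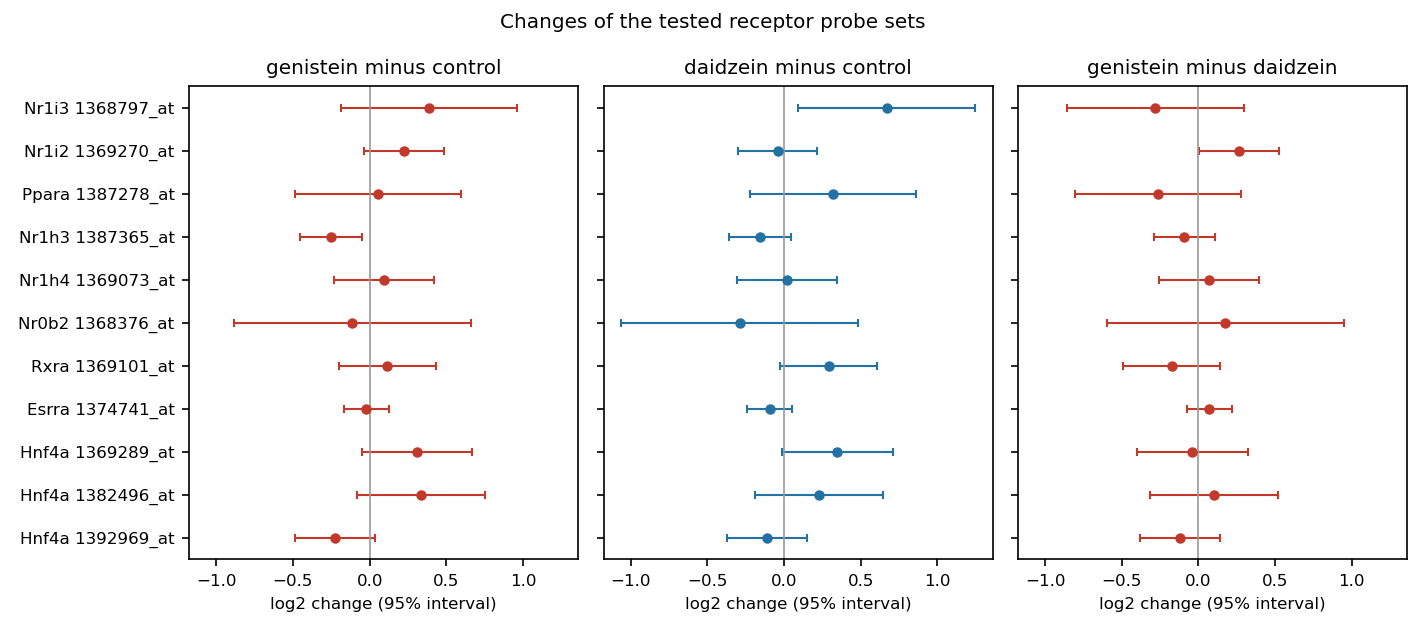
Log2 change of the 11 tested receptor probe sets in the 3 comparisons, with the 95% interval from the limma fit. Points right of 0 are higher in the diet named first; the intervals that leave out 0 are those of Nr1h3, Nr1i3 and Nr1i2, 1 in each comparison.

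CAR, the product of Nr1i3 (Entrez gene 65035, probe set 1368797_at), induces cytochromes P450 and conjugating enzymes after exposure to foreign compounds. Its levels were 0.07, 0.76, 1.82, 1.01 and 1.74 in genistein livers 1 to 5, 1.29, 1.27, 1.22, 1.23 and 1.80 in daidzein livers, and 0.69, 0.41, 0.53, 0.98 and 0.85 in control livers. All 5 daidzein livers lay above all 5 control livers, whereas the genistein livers ran from below the lowest control to above the highest daidzein liver. The groups of daidzein and control did not overlap for 1.88% of all tested probe sets, and Nr1i3 was the only 1 of the 11 receptor probe sets among them. The mean was 1.36 ± 0.25 with daidzein and 0.69 ± 0.23 with control (SD, n = 5 each), a log2 difference of 0.67 or 1.59-fold (95% interval 0.09 to 1.25, limma adjusted p = 0.548), which does not pass. With genistein the mean was 1.08 ± 0.73 (SD, n = 5), 0.39 above control (interval -0.19 to 0.96, limma adjusted p = 0.661). Genistein stood 0.28 below daidzein (log2 change -0.28, interval -0.86 to 0.30, limma adjusted p = 0.824). The genistein value rested on single livers: the change against control was 0.64 without genistein 1 and 0.20 without genistein 3.

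The window around the annotated start of Nr1i3, the receptor gene whose daidzein and control livers did not overlap, is shown from RefSeq (build GRCr8), from 250 bases before the start to 50 after it. This window and those of the other receptor genes were searched on both strands for 6 motifs, whose shares are over 33469 rat windows of this length. AGGTCA, the unit of nuclear receptor sites, was in 16.2% of them. The core recognised by Nr5a2, TCAAGG, was in 14.8%. The HNF4 core CAAAGTCCA was in 0.391% and the HNF1 unit, written GTTAAT, in 7.45%. A TATA box, TATAAA, was in 14.2%, and a GC box, GGGCGG, in 33.1%. No matches overlapped in the windows printed. The Nr1i3 window held none of the 6, so it is printed without capitals.
Nr1i3, chr13:86165170-86165469, plus strand: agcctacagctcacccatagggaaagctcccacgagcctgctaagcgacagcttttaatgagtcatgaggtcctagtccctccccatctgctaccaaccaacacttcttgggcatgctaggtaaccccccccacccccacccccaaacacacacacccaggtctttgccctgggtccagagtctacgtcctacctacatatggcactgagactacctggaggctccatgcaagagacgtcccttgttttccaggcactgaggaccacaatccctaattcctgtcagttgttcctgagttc

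PXR, the product of Nr1i2 (Entrez gene 84385, probe set 1369270_at), binds drugs, steroids and bile acids and induces Cyp3a genes. Its levels were 2.51, 2.58, 3.07, 2.50 and 2.56 in genistein livers, 2.29, 2.28, 2.46, 2.44 and 2.42 in daidzein livers, and 2.12, 2.50, 2.50, 2.30 and 2.68 in control livers. Every genistein liver lay above every daidzein liver, and both diets overlapped the controls. For genistein against daidzein, 2.03% of all tested probe sets did not overlap, and Nr1i2 was 1 of them. The difference of 0.27 between genistein and daidzein (interval 0.01 to 0.52, limma adjusted p = 0.522) does not pass, and it was 0.16 without genistein 3. Nr1i2 differed from control by 0.22 with genistein (interval -0.04 to 0.48, limma adjusted p = 0.541) and by -0.04 with daidzein (interval -0.30 to 0.22, limma adjusted p = 0.948). Without genistein 3 the genistein value was 0.12. The Nr1i2 window held none of the 6 motifs.

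Among CAR and PXR targets, 18 of 22 listed genes were measured and 15 passed the filter. Cyp2b1, Cyp2b2, Ugt1a1 and Ugt1a6 were not measured, and Abcc3, Gadd45b and Sult2a1 lay below the filter. Of the 15 genes 3 were called higher and 0 lower with genistein, against 0.15% and 0.172% of all tested probe sets. The list was chosen with earlier results of these data known, so these counts are not independent support. Of the 15 genes 12 had a log2 change above 0 and 3 below, with a median of 0.39. The called genes were Cyp2a1, a steroid hydroxylase (5.79 ± 0.26 with genistein and 4.16 ± 0.48 with control, SD, n = 5 each, limma adjusted p = 0.0102), Cyp2c6v1, a drug-metabolising cytochrome P450 (1.43-fold, limma adjusted p = 0.018), and Aldh1a1, a retinal dehydrogenase (3.30-fold, limma adjusted p = 0.0261). Aldh1a1 was at 4.24, 4.93, 4.75, 3.48 and 4.29 in genistein livers, at 4.15, 3.61, 3.60, 4.08 and 4.37 in daidzein livers and at 1.92, 3.46, 2.35, 2.43 and 2.91 in control livers, so every liver of both isoflavone diets lay above every control. Of all tested probe sets, 2.57% did not overlap between genistein and control and 1.88% between daidzein and control. With daidzein 1 of the 15 was called higher and 0 lower, against 0.0161% and 0% of all tested probe sets, with a median of 0.22: Ephx1, the microsomal epoxide hydrolase, was 1.73-fold higher (6.81 ± 0.17 with daidzein and 6.02 ± 0.16 with control, SD, n = 5 each, limma adjusted p = 0.0453). Aldh1a1 (log2 change 1.35, limma adjusted p = 0.238) and Cyp2c6v1 (0.30, limma adjusted p = 0.346) were next with daidzein and did not pass. Between the isoflavones 0 of the 15 were called, with a median of 0.21. The lowest p values there were those of Cyp2a1 (log2 change 1.18, limma adjusted p = 0.0699), and of the Cyp3a members Cyp3a18 (-1.82, 0.11) and Cyp3a2 (-1.67, 0.161). Against control, Cyp3a18 had log2 changes of -1.81 with genistein (limma adjusted p = 0.0909) and 0.02 with daidzein (0.994), and Cyp3a2 of -1.75 (0.12) and -0.08 (0.973). The genistein values were as large in size as those of the called genes but did not pass. Genistein livers were uneven for both, with an SD of 1.012 for Cyp3a18 and 1.255 for Cyp3a2. With daidzein these SDs were 0.421 and 0.405 (n = 5 each). Cyp3a23-3a1, a PXR target, had log2 changes of 0.23 with genistein and 0.36 with daidzein, neither called. The calls of Cyp2a1, Cyp2c6v1 and Aldh1a1 came with genistein and not with daidzein, but the difference between the isoflavones did not pass for any of them. Under 26 other settings and omissions of livers, Cyp2a1 passed in 23, Aldh1a1 in 16, Cyp2c6v1 in 15 and Ephx1 in 6, always in the same direction. The 26 include omissions of livers of the diet not compared, which leave the log2 change as it was. The 21 alternatives used for the receptors do not. Cyp2a1, Aldh1a1 and Cyp2c6v1 passed in all of those omissions, and Ephx1 only without genistein 4. Without genistein 3, Cyp2a1 still passed and the limma adjusted p was 0.0899 for Aldh1a1 and 0.0564 for Cyp2c6v1.

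PPAR alpha, the product of Ppara (Entrez gene 25747, probe set 1387278_at), turns on fatty acid oxidation. Its probe set was dim, with a mean level of -0.20 just above the filter level of -0.297. The control mean of -0.323 lay under that level, and the means with genistein (-0.268) and daidzein (-0.005) lay above it. The probe set thus passed the filter only through the isoflavone diets. Levels were -0.74, -0.43, 0.03, -0.17 and -0.04 in genistein livers, -0.09, 0.24, 0.08, -0.09 and -0.16 in daidzein livers, and -1.41, -0.10, 0.29, -0.43 and 0.03 in control livers. The groups overlapped, and control 1 was the lowest of the 15. The log2 change was 0.05 with genistein against control (interval -0.49 to 0.60, limma adjusted p = 0.970), 0.32 with daidzein against control (interval -0.22 to 0.86, limma adjusted p = 0.768) and -0.26 for genistein against daidzein (interval -0.81 to 0.28, limma adjusted p = 0.825). Without control 1 the values against control were -0.22 with genistein and 0.05 with daidzein.

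Of 30 listed PPAR alpha targets 25 were measured and 24 passed the filter, and 0 were called in any comparison. Their median log2 change was 0.11 with genistein (15 higher, 9 lower), 0.16 with daidzein (19 higher, 5 lower) and 0.03 between the isoflavones. Ehhadh, a peroxisomal oxidation enzyme, had log2 changes of 0.39 with genistein (limma adjusted p = 0.206) and 0.46 with daidzein (limma adjusted p = 0.346). Cd36, the fatty acid translocase, was at 3.24 ± 0.97 with genistein and 1.65 ± 0.33 with control (SD, n = 5 each, limma adjusted p = 0.0851), and Acadm, the medium-chain dehydrogenase, had a change of -0.27 (limma adjusted p = 0.18). With daidzein, Ucp3, a mitochondrial carrier, stood at 0.50 and Vnn1, a pantetheinase, at 0.61 above control (limma adjusted p = 0.346 and 0.46). Between the isoflavones Decr2, a peroxisomal reductase, had a change of -0.40 (limma adjusted p = 0.0879), Vnn1 of -0.92 (0.101) and Cd36 of 1.26 (0.217).

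LXR alpha, the product of Nr1h3 (Entrez gene 58852, probe set 1387365_at), senses cholesterol and induces sterol transporters and fatty acid synthesis. Its levels were 3.99, 3.93, 3.76, 3.88 and 4.09 in genistein livers, 3.81, 4.09, 4.25, 4.12 and 3.85 in daidzein livers, and 4.19, 4.22, 4.25, 4.21 and 4.03 in control livers. In 4 of 5 genistein livers the level lay below every control, and genistein 5 lay above control 5 alone. The mean was 3.93 ± 0.13 with genistein and 4.18 ± 0.09 with control (SD, n = 5 each), a log2 change of -0.25 or 1.19-fold lower (interval -0.45 to -0.05, limma adjusted p = 0.337), which does not pass. Over the 21 alternative settings this value lay between -0.29 and -0.21. Without genistein 3, the lowest genistein liver, it was -0.207 (limma adjusted p = 0.577). With daidzein the change was -0.16 (interval -0.36 to 0.04, limma adjusted p = 0.691), and between the isoflavones it was -0.09 (interval -0.29 to 0.11, limma adjusted p = 0.847).

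LXR targets, 13 of 16 measured genes past the filter, had 0 called in any comparison. Their median was -0.06 with genistein (3 higher, 10 lower), -0.07 with daidzein (1 higher, 12 lower) and -0.01 between the isoflavones. Smpdl3a, a sphingomyelinase-like phosphodiesterase, had the lowest p against control with both: 4.24, 4.14, 3.96, 4.15 and 4.01 in genistein livers, 4.19, 4.18, 4.11, 4.03 and 4.30 in daidzein livers and 4.35, 4.48, 4.45, 4.43 and 4.36 in control livers. Every liver of both isoflavone diets lay below every control, and 2.57% of all tested probe sets did not overlap with genistein and 1.88% with daidzein. The log2 changes of -0.31 with genistein (limma adjusted p = 0.0924) and -0.25 with daidzein (limma adjusted p = 0.382) did not pass. Fasn, the fatty acid synthase, stood at -0.89 with genistein (limma adjusted p = 0.425) and -0.335 with daidzein (0.865). Srebf1, the lipogenic transcription factor, stood at -0.62 with daidzein (limma adjusted p = 0.64) and -0.646 with genistein (0.481). Abca1, the cholesterol exporter, had a change of 0.91 with genistein against control (limma adjusted p = 0.453) and of 0.94 against daidzein (0.508). Mlxipl, the carbohydrate response factor, had a change of -0.33 with daidzein (limma adjusted p = 0.415) and was 0.26 higher with genistein than with daidzein (0.432), and Lpl, lipoprotein lipase, differed by 0.25 between the isoflavones (0.693).

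FXR, the product of Nr1h4 (Entrez gene 60351, probe set 1369073_at), is the bile acid sensor. Its levels were 3.72, 4.04, 4.12, 3.86 and 3.52 in genistein livers, 3.36, 3.83, 3.88, 3.73 and 4.11 in daidzein livers, and 3.65, 3.76, 3.83, 3.46 and 4.10 in control livers, with full overlap of the diets. The log2 change was 0.09 with genistein (interval -0.23 to 0.42, limma adjusted p = 0.892), 0.02 with daidzein (interval -0.31 to 0.35, limma adjusted p = 0.983) and 0.07 between the isoflavones (interval -0.26 to 0.40, limma adjusted p = 0.942).

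SHP, the product of Nr0b2 (Entrez gene 117274, probe set 1368376_at), is induced by FXR and represses bile acid synthesis. Its levels were 2.30, 2.69, 3.59, 3.87 and 2.597 in genistein livers, 2.14, 3.84, 2.58, 2.33 and 3.28 in daidzein livers, and 2.58, 2.95, 2.92, 3.65 and 3.51 in control livers. Each diet held both high and low livers, and the SD between livers of a diet was 0.62, larger than for 95.6% of the tested probe sets. The log2 change was -0.11 with genistein (interval -0.89 to 0.66, limma adjusted p = 0.953), -0.29 with daidzein (interval -1.06 to 0.48, limma adjusted p = 0.874) and 0.18 between the isoflavones (interval -0.60 to 0.95, limma adjusted p = 0.937). These intervals are the widest among the tested receptors.

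The Nr0b2 window is printed because this gene has the largest spread between livers of the receptors and is a known target of Nr5a2 (LRH-1). Capitals mark TCAAGG starting 69 and 36 bases before the start, a GC box on the other strand 43 bases before it and TATAAA 29 bases before it.
Nr0b2, chr5:151062910-151063209, plus strand: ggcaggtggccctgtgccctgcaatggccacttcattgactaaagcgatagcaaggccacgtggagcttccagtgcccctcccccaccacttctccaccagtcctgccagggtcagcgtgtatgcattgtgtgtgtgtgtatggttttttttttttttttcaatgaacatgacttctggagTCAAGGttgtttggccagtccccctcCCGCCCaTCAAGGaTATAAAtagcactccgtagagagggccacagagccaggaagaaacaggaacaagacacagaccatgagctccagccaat

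Of the FXR and SHP targets 16 of 17 listed were measured, all 16 passed the filter, and 0 were called in any comparison. Medians were 0.03 with genistein, 0.03 with daidzein and 0.03 between the isoflavones. The canalicular phospholipid transporter Abcb4 (log2 change 0.45, limma adjusted p = 0.231), the bile acid uptake carrier Slc10a1 (0.25, 0.3) and the plasma protein Fetub (0.23, 0.396) had the lowest p with genistein. With daidzein these were Fabp6, a bile acid binding protein (0.59, 0.551), Slc10a1 (0.17, 0.648) and Slc51a, a bile acid exporter subunit (-0.37, 0.669). Fabp6 was dim, with a control mean of -0.517, under the filter level of -0.30. Between the isoflavones Abcb4 differed by 0.31 (limma adjusted p = 0.514), Cyp8b1, the sterol hydroxylase that sets bile acid composition, by -0.68 (0.524) and Slc51a by 0.41 (0.592). Cyp7a1, the rate-limiting enzyme of bile acid synthesis and the classic gene under SHP repression, had changes of -0.16 with genistein and -0.02 with daidzein.

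RXR alpha, the product of Rxra (Entrez gene 25271, probe set 1369101_at), is the dimer partner of CAR, PXR, PPAR alpha, LXR alpha and FXR. Its levels were 1.38, 0.80, 1.22, 1.34 and 1.19 in genistein livers, 1.29, 1.19, 1.75, 1.39 and 1.18 in daidzein livers, and 1.10, 0.66, 1.00, 1.37 and 1.21 in control livers. The diets overlapped, with daidzein 3 the highest and control 2 the lowest. The log2 change was 0.12 with genistein (interval -0.20 to 0.43, limma adjusted p = 0.844), 0.29 with daidzein (interval -0.03 to 0.61, limma adjusted p = 0.642) and -0.17 between the isoflavones (interval -0.49 to 0.14, limma adjusted p = 0.795). Rxrb, the related partner, had log2 changes of -0.25 with genistein and -0.001 with daidzein against control.

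HNF4 alpha, the product of Hnf4a (Entrez gene 25735), binds as a homodimer and controls apolipoprotein, clotting and glucose genes. Its 3 probe sets differed in the sign of their change against control. The brightest, 1392969_at, was at 5.45, 5.46, 5.64, 5.20 and 5.12 in genistein livers, 5.45, 5.57, 5.75, 5.42 and 5.29 in daidzein livers, and 5.53, 5.39, 5.51, 5.68 and 5.90 in control livers. Its log2 change was -0.23 with genistein (interval -0.49 to 0.03, limma adjusted p = 0.533), -0.11 with daidzein (interval -0.37 to 0.15, limma adjusted p = 0.859) and -0.12 between the isoflavones (interval -0.38 to 0.14, limma adjusted p = 0.840).

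Probe set 1369289_at, designed on a RefSeq Hnf4a mRNA, was at 2.54, 2.63, 3.36, 2.71 and 2.67 in genistein livers, 2.67, 2.82, 3.08, 2.71 and 2.83 in daidzein livers, and 2.30, 2.07, 2.44, 2.65 and 2.90 in control livers. It stood above control, by 0.31 with genistein (interval -0.05 to 0.67, limma adjusted p = 0.546) and 0.35 with daidzein (interval -0.01 to 0.71, limma adjusted p = 0.618), and differed by -0.04 between the isoflavones (interval -0.40 to 0.32, limma adjusted p = 0.976). The third, 1382496_at, likewise stood 0.33 above control with genistein (interval -0.08 to 0.75, limma adjusted p = 0.584) and 0.23 with daidzein (interval -0.19 to 0.65, limma adjusted p = 0.790), and 0.10 apart between the isoflavones (interval -0.31 to 0.52, limma adjusted p = 0.931). Across the 15 livers these 2 probe sets correlated with each other (Pearson r = 0.859, a description with no test), and less with 1392969_at (r = 0.36 for 1369289_at and 0.209 for 1382496_at). After subtracting each diet's mean the same values were 0.849, 0.747 and 0.51, so within diets all 3 varied in the same direction. Genistein 3 was the highest genistein liver for all 3 probe sets. Without it the genistein changes were 0.16 for 1369289_at, 0.16 for 1382496_at and -0.295 for 1392969_at, so the signs still differed.

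The difference between 2 probe sets within an array removes what they share to the same extent. The SD between livers of a diet was 0.281 for 1369289_at, 0.329 for 1382496_at and 0.194 for 1392969_at, so some shared variation can remain. For 1369289_at minus 1392969_at it was -2.91, -2.83, -2.28, -2.49 and -2.46 in genistein livers, -2.78, -2.75, -2.67, -2.70 and -2.46 in daidzein livers, and -3.23, -3.32, -3.06, -3.03 and -2.996 in control livers. All 10 isoflavone livers lay above all 5 control livers, and 6 of 3500 pairs of probe sets, or 0.171%, had both diets on the same side of the controls with no overlap. Fitted with limma over all 3500 such pairs of probe sets in 2676 genes, the shift was 0.54 with genistein (interval 0.27 to 0.80, adjusted p = 0.32) and 0.46 with daidzein (interval 0.20 to 0.72, adjusted p = 0.438), and neither passed. Groups that do not overlap occurred in 1.14% of the pairs with genistein, 1.6% with daidzein and 1.34% between the isoflavones, and 0 pairs were called in any comparison (300, 253 and 217 had an unadjusted p under 0.05, or 8.57%, 7.23% and 6.2%). Both comparisons use the same control livers. For 1382496_at minus 1392969_at the shift was 0.56 with genistein (adjusted p = 0.391) and 0.34 with daidzein (adjusted p = 0.695), with overlap. This fit was added after the member values had been seen. Neither shift was fitted without genistein 3, the highest genistein liver in both differences. The log2 ratio of the 3' to the 5' Gapdh control probe set averaged 0.006 with genistein, -0.015 with daidzein and 0.056 with control. For Actb this ratio averaged 1.056 with genistein, 1.026 with daidzein and 1.064 with control. The part of either ratio in the shift was not tested.

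**Figure D3:**
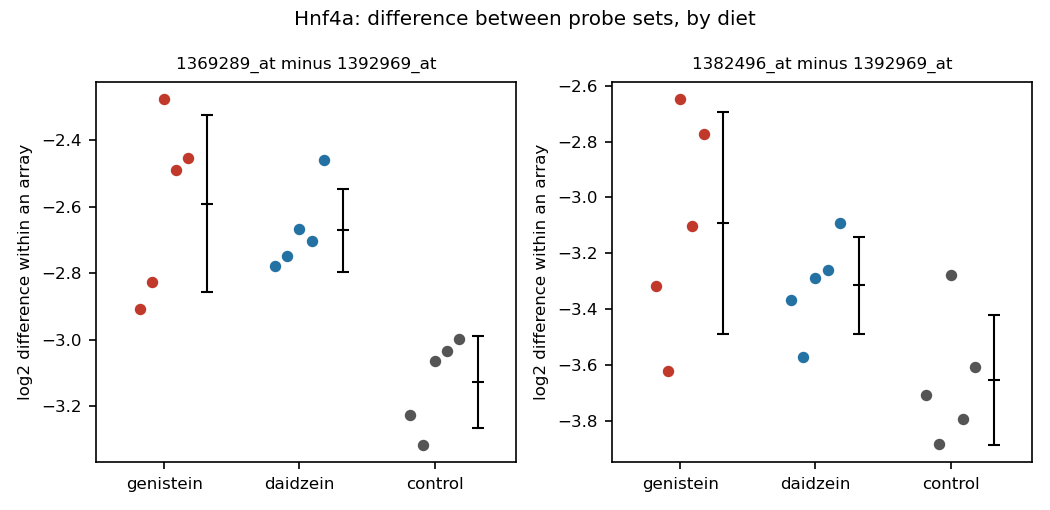
Difference between Hnf4a probe sets within each array, in log2 units, by diet. Points are single livers and bars are the mean and SD of 5; for 1369289_at minus 1392969_at the control livers lie between -3.32 and -2.996, below every genistein and daidzein liver.

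Hnf4a has an upstream and a downstream promoter, of which the downstream one serves adult liver, and the RefSeq table lists starts 35616 bases apart. The array annotation does not tie the 3 probe sets to transcripts of either start, so the windows are shown only to set the start sites apart. Capitals mark a GC box 14 bases before the upstream start, and before the downstream start a GC box (118 bases, other strand) and a pair of HNF1 units on the other strand (90 and 83 bases).
Hnf4a upstream start, chr3:172605970-172606269, plus strand: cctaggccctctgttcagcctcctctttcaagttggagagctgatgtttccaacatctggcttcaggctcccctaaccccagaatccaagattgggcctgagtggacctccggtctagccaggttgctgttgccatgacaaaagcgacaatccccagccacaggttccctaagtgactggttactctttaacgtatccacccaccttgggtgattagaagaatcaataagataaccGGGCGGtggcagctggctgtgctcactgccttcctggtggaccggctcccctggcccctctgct
Hnf4a downstream start, chr3:172641586-172641885, plus strand: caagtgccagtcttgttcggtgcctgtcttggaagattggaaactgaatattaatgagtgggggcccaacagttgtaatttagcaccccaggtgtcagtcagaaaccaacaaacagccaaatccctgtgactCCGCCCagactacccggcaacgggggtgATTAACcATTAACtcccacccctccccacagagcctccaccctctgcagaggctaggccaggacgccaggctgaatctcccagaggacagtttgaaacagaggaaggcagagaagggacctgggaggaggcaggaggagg

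HNF4 alpha targets, 15 measured of 19 listed and all 15 past the filter, had 0 called in any comparison. Medians were -0.02 with genistein, -0.02 with daidzein and 0.03 between the isoflavones. Tat, the tyrosine aminotransferase, stood at 3.99 ± 0.58 with genistein and 5.01 ± 0.52 with control (SD, n = 5 each, limma adjusted p = 0.222), and Mttp, which loads lipid onto apolipoprotein B, was 0.23 above control with genistein (limma adjusted p = 0.305) and 0.28 above daidzein (0.222). Serpina1 (-0.09) had the next lowest p with genistein, and Otc (-0.22), F9 (-0.29) and Apoa2 (0.12) had the lowest with daidzein, at limma adjusted p from 0.627 to 0.685. Between the isoflavones Otc, of the urea cycle, differed by 0.29 (limma adjusted p = 0.409) and Apoa4 by -0.17 (0.621).

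ERR alpha, the product of Esrra (Entrez gene 293701, probe set 1374741_at), was the receptor with the least spread. Its levels were 1.26, 1.25, 1.42, 1.37 and 1.17 in genistein livers, 1.25, 1.20, 1.14, 1.29 and 1.23 in daidzein livers, and 1.45, 1.31, 1.32, 1.25 and 1.25 in control livers. The SD between livers of a diet was 0.08, smaller than for all but 2.4% of the tested probe sets. The log2 change was -0.02 with genistein (interval -0.17 to 0.13, limma adjusted p = 0.953), -0.09 with daidzein (interval -0.24 to 0.05, limma adjusted p = 0.744) and 0.07 between the isoflavones (interval -0.07 to 0.22, limma adjusted p = 0.821).

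ERR alpha targets, with 12 measured of 14 listed and all 12 past the filter, had 0 called. Their median was -0.06 with genistein (5 higher, 7 lower), -0.14 with daidzein (2 higher, 10 lower) and 0.09 between the isoflavones (11 higher, 1 lower). Acadm had log2 changes of -0.27 with genistein (limma adjusted p = 0.18) and -0.22 with daidzein (0.481), and stands in the PPAR alpha list too. Uqcrc2, a complex III subunit, stood at -0.17 with genistein (limma adjusted p = 0.668) and -0.33 with daidzein (0.504). Of the citrate cycle enzymes, Idh3a stood at -0.14 with genistein (limma adjusted p = 0.636) and -0.153 with daidzein (0.693). Mdh2 stood at -0.122 with genistein (limma adjusted p = 0.704) and -0.18 with daidzein (0.642). Between the isoflavones Atp5f1b, an ATP synthase subunit, differed by 0.15 (limma adjusted p = 0.582), Sdha by 0.21 (0.624) and Cs by 0.09 (0.772).

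The estrogen receptor gene Esr1 (Entrez gene 24890, probe set 1387704_at) lay below the filter, and its rebuilt intensity ran from 15 to 34 steps of the inferred scale over the 15 livers. Its levels were -0.50, -0.93, -1.29, -0.85 and -0.88 in genistein livers, -0.68, -1.13, -1.09, -1.41 and -0.47 in daidzein livers, and -1.07, -1.27, -0.09, -0.66 and -0.42 in control livers. The diets overlapped. In the fit without a filter, over 31042 probe sets, the log2 change was -0.19 with genistein (interval -0.69 to 0.32, limma adjusted p = 0.893), -0.25 with daidzein (interval -0.75 to 0.25, limma adjusted p = 0.873) and 0.07 between the isoflavones (interval -0.43 to 0.57, limma adjusted p = 0.985).

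Of 12 listed estrogen-responsive liver genes 11 were measured and 8 passed the filter. This list too was chosen with earlier results of these data known, so its counts are not independent support. With genistein 1 of 8 was called higher and 0 lower (median 0.03), against 0.15% and 0.172% of all tested probe sets: Prlr, the prolactin receptor, was 5.57-fold higher, at 4.02, 4.48, 4.17, 3.28 and 3.81 in genistein livers, 1.38, 2.87, 1.84, 2.84 and 1.10 in daidzein livers and 0.39, 1.67, 1.82, 0.71 and 2.79 in control livers (limma adjusted p = 0.034 for genistein against control). Every genistein liver lay above every liver of the other diets, where 2.57% of all tested probe sets did not overlap between genistein and control and 2.03% between genistein and daidzein. The call was lost in 14 of 26 other settings, with a limma adjusted p of 0.101 and a log2 change of 2.42 without genistein 3. The 26 include omissions of daidzein livers, which leave this log2 change as it was. Among those the call was lost only without daidzein 3 (limma adjusted p = 0.0532). The difference of 1.95 between genistein and daidzein did not pass (limma adjusted p = 0.101), nor did that of 0.53 between daidzein and control (0.785). With daidzein 0 of 8 were called (median 0.15), and between the isoflavones 0 of 8 (median 0.01). Lifr, the leukaemia inhibitory factor receptor, stood 0.40 above control with genistein (limma adjusted p = 0.556) and 0.24 above daidzein (0.81), and F12, clotting factor XII, 0.09 above control (0.762). Agt, angiotensinogen, stood 0.15 above control with daidzein (limma adjusted p = 0.619) and at -0.11 for genistein against daidzein (0.708), and Igf1 at -0.07 with daidzein (0.873).

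**Figure D4:**
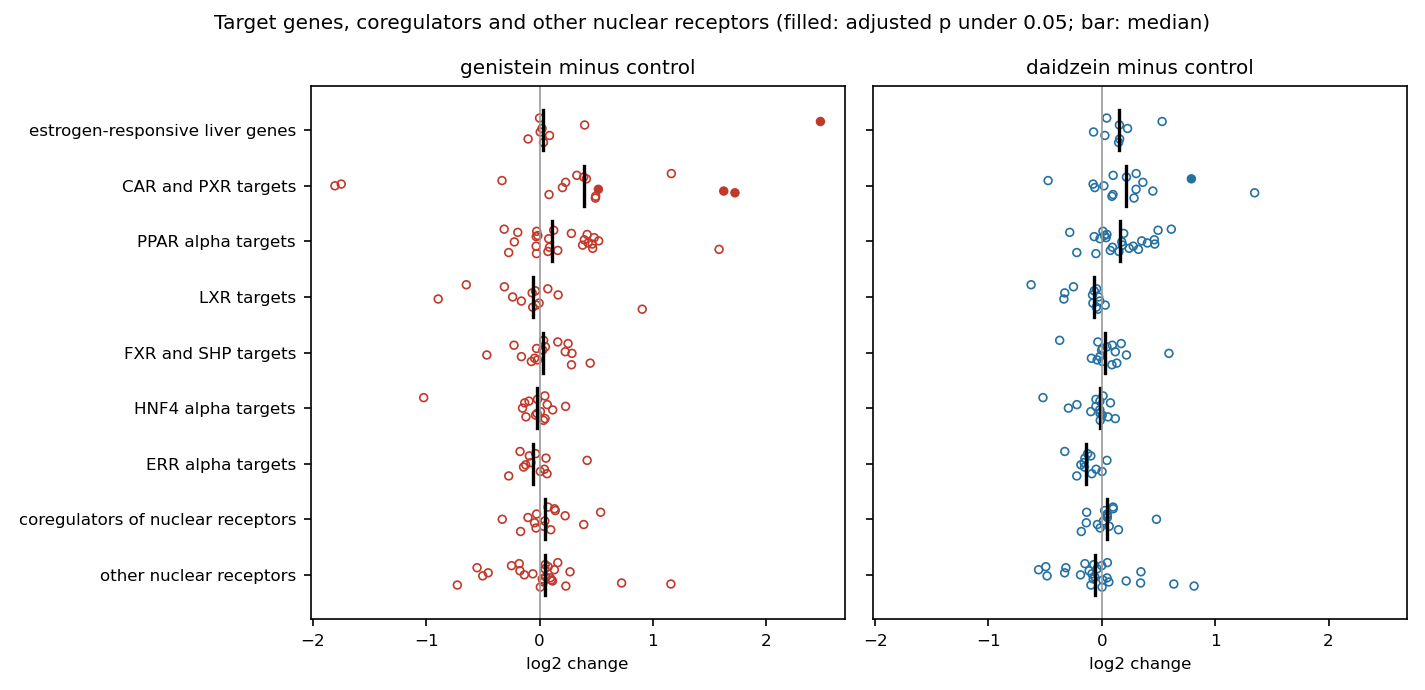
Log2 change against control of each gene past the filter in the 9 lists of targets, coregulators and other nuclear receptors, for genistein and for daidzein. Each circle is 1 gene, filled where the limma adjusted p is under 0.05, and the bar is the list's median; Prlr, Cyp2a1, Cyp2c6v1 and Aldh1a1 are filled with genistein and Ephx1 with daidzein.

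Coregulators carry the receptors' signal to chromatin, and 15 of 16 measured passed the filter, with 0 called in any comparison. Medians were 0.05 with genistein, 0.04 with daidzein and 0.01 between the isoflavones. Ncoa3, a steroid receptor coactivator, was at -0.04, -0.03, 0.43, 0.73 and 0.15 in genistein livers, 1.28, 0.75, 1.09, 1.27 and 0.91 in daidzein livers, and 0.27, 0.50, 0.83, 0.60 and 0.69 in control livers. All genistein livers lay below all daidzein livers, as groups did not overlap for 2.03% of all tested probe sets, and the controls overlapped both. The difference of -0.81 between genistein and daidzein had a limma adjusted p of 0.0699, and those against control were -0.33 with genistein (0.475) and 0.48 with daidzein (0.432). The corepressor Ncor1 stood 0.23 above control with genistein (limma adjusted p = 0.196) and 0.18 above daidzein (0.39), and Ppargc1a, the coactivator of ERR alpha, 0.54 above control (0.577) and 0.67 above daidzein (0.523). With daidzein Med1 (-0.14) and Crebbp (0.15) followed (limma adjusted p = 0.69 and 0.691).

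Of 36 other nuclear receptor genes 32 were measured and 25 passed the filter, with 0 called. Medians were 0.05 with genistein, -0.06 with daidzein and 0.03 between the isoflavones. Rora, which has circadian and lipid roles, stood at -0.55 with genistein (limma adjusted p = 0.196), Nr0b1, a close relative of SHP, at -0.72 (0.222) and Pparg, the adipogenic PPAR, at 0.27 (0.53). With daidzein Rorb stood at -0.49 (limma adjusted p = 0.509), Pparg at 0.34 (0.559) and Esrrg, a relative of Esrra, at 0.81 (0.598). Between the isoflavones the lowest p were those of Rorb (0.57, limma adjusted p = 0.286), Nr0b1 (-0.63, 0.374) and Rarb, a retinoic acid receptor (0.69, 0.481). Rorb averaged -0.43 with daidzein and Nr0b1 -0.509 with genistein, both under the filter level of -0.30. These dim probe sets passed the filter only through the other diets. The second estrogen receptor gene Esr2, the progesterone receptor gene Pgr and Vdr lay below the filter.

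How the receptors varied together was examined within diets, after subtracting each diet's mean, for 36 pairs of the 9 receptor genes past the filter, with 2-sided permutation of livers within diets (100000 resamples). None of the 36 pairs passed after adjustment. The lowest p belonged to Nr1i2 with Nr1h4 (Pearson r = 0.608, permutation p = 0.0173, adjusted p = 0.513, and Spearman rho = 0.621, permutation p = 0.0209, adjusted p = 0.639; r = 0.404 without the 2 livers farthest from the median of Nr1i2) and Nr1i2 with Ppara (r = 0.648, permutation p = 0.0285, adjusted p = 0.513, and rho = 0.6, permutation p = 0.0462, adjusted p = 0.639; r = 0.692 without the 2 farthest). The first of these was positive in each diet (0.619, 0.502 and 0.798 in genistein, daidzein and control livers), and the second was 0.56, -0.377 and 0.877. For both pairs the livers left out were control 5 and genistein 3. Control 1, the lowest of the 15 livers for both Nr1i2 and Ppara, stayed in. FXR and its target SHP, Nr1h4 with Nr0b2, had r = 0.448 (permutation p = 0.132, adjusted p = 0.728) and rho = 0.511 (permutation p = 0.0782, adjusted p = 0.642), and r = 0.268 without the 2 farthest.

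**Figure D5:**
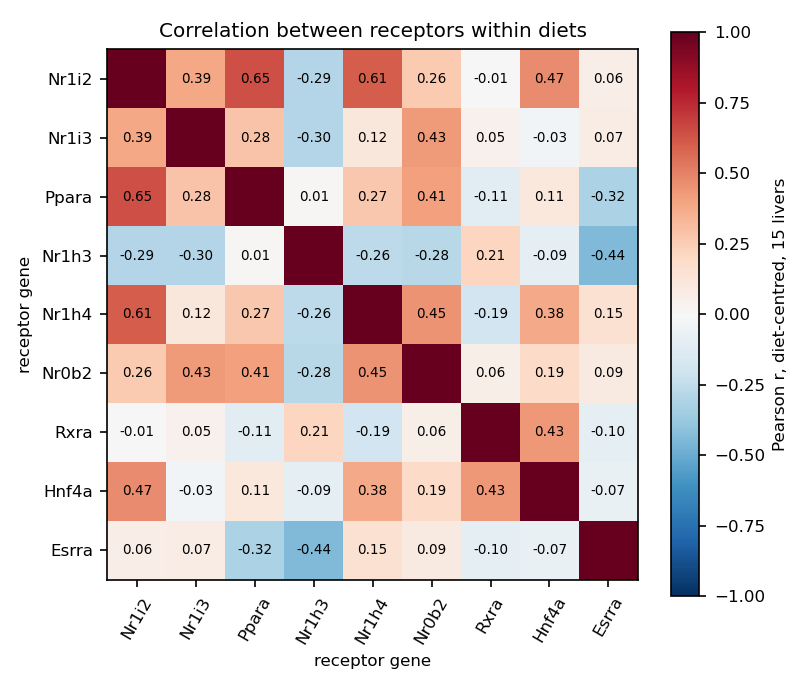
Pearson correlation between the 9 receptor genes past the filter over 15 livers, after subtracting each diet's mean, on a scale from -1 to 1. The largest values are 0.65 for Nr1i2 with Ppara and 0.61 for Nr1i2 with Nr1h4, and none passed after adjustment over 36 pairs.

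Receptors were also set beside textbook targets or partners in 10 pairs, chosen after the member values had been seen, and none passed (adjusted p of Pearson r from 0.852 to 0.948). SHP is known to repress Cyp7a1, and Nr0b2 and Cyp7a1 had r = 0.423 within diets (permutation p = 0.108, adjusted p = 0.852, and rho = 0.404, permutation p = 0.144, adjusted p = 0.864; r = 0.519 without the 2 farthest livers). By diet it was 0.892 in genistein livers, -0.647 in daidzein livers and 0.965 in control livers, each over 5 livers and not tested. Nr1h4 with the bile salt export pump gene Abcb11 had r = 0.351, Nr1h3 with Srebf1 0.223, Nr1i3 with Cyp2c6v1 0.176, Ppara with Cyp4a1 0.117, Nr1i2 with Cyp3a23-3a1 0.0211 and Esrra with Ppargc1a -0.0934. Nr0b2 with its activator Nr5a2 had r = -0.31, which turned to 0.271 without the 2 farthest livers (daidzein 2 and genistein 4), and by diet it was 0.0171 in genistein livers, -0.897 in daidzein livers and 0.222 in control livers.

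Among 10641 other genes, those with the most similar pattern over the 15 livers are named as a description, by Pearson r and without p. For Nr1i3 these were Sgpl1 (0.887) and Ak3 (0.881), for Nr1i2 Mpg (0.898) and Plpp3 (0.892), for Ppara Scarb2 (0.878) and Gpn2 (0.864), and for Nr1h3 Ndufb1 (0.901) and Ppp1r14a (0.853). For Nr1h4 they were Cdk9 (0.874) and Wnk1 (0.868), for Nr0b2 Lrp10 (0.829) and Csnk1d (0.82), for Rxra Ptcd1 (0.846) and Ndufa11 (0.827), for Hnf4a, by probe set 1392969_at, Wwc1 (0.821) and Serpinf2 (0.807), and for Esrra Desi2 (0.819) and Nucks1 (0.801). These are the highest of 10641 values over 15 livers that share 3 diets.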

How the data were processed

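Biotin-labelled liver RNA of 15 rats was hybridised to 15 arrays, per the labels' protocols. The deposited values are a score per probe set and array, a standardized log signal; background correction, probe summary and scale are not given in the sources used here. When scores were turned back to linear intensities, 359 of 359 gaps between values repeated at least 150 times were whole steps within 0.001, so scores were multiplied by the mean scale, 2.599 log2 units (2.54 to 2.79), and log2 changes rest on that inference. Array medians of the deposited score spanned 0.00111 to 0.127, over the limit of 0.1, so arrays were quantile normalized. Control probe sets (57) and those below the 40th percentile of mean level were left out. limma 3.58.1 (R 4.3.3) fitted 3 diets over 15 arrays (12 residual and 2.58 prior degrees of freedom). No array depth exists beyond the number of arrays, which limits precision. The annotation gave 1 symbol for 20832 probe sets, more for 436 and no symbol for 9831; 20764 matched the current RefSeq table. The fits were tested on simulated data with shifts larger than those of the receptors, so that test does not cover changes as small as these. Promoters are RefSeq GRCr8, found for 9 of 10 genes; the annotation names no build, so gene coordinates are not given.

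The members and the 9 lists were chosen with earlier results of these data known, so no list is independent support. All members are named, with up to 3 genes of lowest p per list and comparison and any called gene, and the 2 genes most like each member. For list genes the brightest probe set stood for the gene. Livers are numbered by their titles; the descriptions carry another number for 9 of the 15 arrays. Title numbers might pair arrays of different diets; residuals of same-numbered arrays correlated above 0.1 in 1 of 15 pairs (r from -0.163 to 0.109), so the numbers served only as an alternative block.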

Additional observations from a re-analysis of the deposited data

Results flagged for a closer look

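Among 36 sets of 5 livers (12 probe sets in 3 diets), 4 held a liver far from the others, with a gap to its neighbour above Dixon's 95% critical value as a share of the range, and chance flags about 1 in 20 such sets. Genistein 3 was the highest genistein liver for Hnf4a probe set 1369289_at (3.36) and for Nr1i2 (3.07). Daidzein 5 was the highest daidzein liver for Nr1i3 (1.80), and without it the daidzein change of Nr1i3 was 0.56. Control 5 was the lowest control liver for Nr1h3 (4.03). Genistein 3 was the highest of its diet for 8 of the 12 probe sets, daidzein 3 for 6 and control 5 for 5.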

How the results depend on the processing

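No receptor probe set was called in any comparison under any of the 21 alternatives of each comparison, so these 0 counts did not move, and no pair of receptors passed without centring (lowest adjusted p = 0.684) or without the 2 farthest livers (0.575). The count of all called probe sets, the background of this report, did move. For genistein against control it was 60, and 34 with median centring, 14 with no filter, 28 with the filter at the 20th percentile, 0 with only the 10 arrays compared in limma (where 1898 had an unadjusted p under 0.05), 17 with the replicate block, 110 with trend and robust variances, 140 with array weights, 4 without control 1 and daidzein 5, and 5 (without control 3) to 203 (without genistein 4) leaving out 1 array. For daidzein against control it was 3, and 6 with trend and robust variances, 7 with array weights, 1 without control 1 and daidzein 5, and 2 to 8 (without daidzein 1) leaving out 1 array. For genistein against daidzein it was 21, and 9 with median centring, 3 with no filter, 12 at the 20th percentile, 35 with 16 added to the rebuilt intensities, 2 with only the 10 arrays compared, 2 with the replicate block, 53 with trend and robust variances, 74 with array weights, 4 without control 1 and daidzein 5, and 3 (without daidzein 3) to 136 (without genistein 4) leaving out 1 array. Over the 26 settings run on the called target genes, added after the data were seen, adjusted p ranged from 0.00149 to 0.0609 for Cyp2a1, 0.00479 to 0.129 for Aldh1a1, 0.00609 to 0.409 for Cyp2c6v1, 0.0128 to 0.114 for Prlr and 0.00916 to 0.543 for Ephx1. These settings include omissions of livers of the diet not compared, and the 0.00916 of Ephx1 came from 1 of these, without genistein 4. With the replicate block only Cyp2a1 of these 5 genes passed.

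Values near 0 changed sign under some settings, none of them called and the cause not tested. For genistein against control, Ppara was at -0.015 with no further normalization, -0.078 with array weights and -0.22 without control 1 and daidzein 5, and ranged from -0.22 to 0.21 leaving out 1 liver. Esrra was at 0.002 with median centring and 0.011 without control 1 and daidzein 5, and from -0.054 to 0.011 leaving out 1 liver, and Nr0b2 from -0.328 to 0.065. For daidzein against control, Nr1h4 was at -0.089 without control 1 and daidzein 5 and from -0.062 to 0.127 leaving out 1 liver, and Nr1i2 from -0.118 to 0.024. For genistein against daidzein the ranges were -0.184 to 0.025 for Hnf4a 1369289_at, -0.074 to 0.216 for 1382496_at, -0.039 to 0.427 for Nr0b2 and -0.035 to 0.156 for Nr1h4. In place of Hnf4a 1392969_at, 1369289_at gave 0.31 and 1382496_at 0.33 with genistein, 0.35 and 0.23 with daidzein, and 1382496_at gave 0.10 between the isoflavones.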
